A study of Ovis aries with 2 samples.

Results

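Cardiomyocytes of E16 sheep embryos were chosen by their measured UMIs, as the cells with at least 5 UMIs, and at least 30 per 10000 UMIs, summed over ACTC1 (cardiac alpha actin) and TNNC1 (slow skeletal and cardiac troponin C). A UMI is a molecular tag that lets each captured transcript be counted once. Barcodes were kept when 200 or more genes were detected and less than 10% of UMIs were mitochondrial, which left 24137 cells. Of these, 62 met the rule, which is 0.257% of the cells with an exact 95% binomial interval of 0.197% to 0.329%. The Ujumqin library held 39 of them among 14554 cells (0.268%, 0.191% to 0.366%), and the Hulunbuir library held 23 among 9583 cells (0.240%, 0.152% to 0.360%). The shares of both libraries lay within each other's interval. All intervals given here cover counting error only.

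The study compared embryos of Ujumqin sheep, a Mongolian breed, with those of Hulunbuir short-tailed sheep at embryonic day 16. Embryos of each breed were pooled, their extraembryonic tissue was removed, and the tissue was digested to single cells with a red blood cell lysis step before droplet-based 3' sequencing. Each breed was 1 library, so no difference between breeds had a replicate check and no p-value was computed. The libraries held 17059 and 10709 barcodes and 212933364 and 131385353 UMIs.

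Cardiomyocytes are the contractile cells of the heart, the first organ that works in the embryo. Their sarcomeres slide myosin thick filaments past actin thin filaments, which are anchored at the Z-disc, and calcium that binds the troponin complex switches the contraction on. The early heart tube forms from cells of the heart fields under factors such as NKX2-5, GATA4, TBX5 and MEF2C, and its chambers differ in their myosin chains, MYL7 and MYH6 being typical of the atria and MYL2 of the ventricles in the mature heart.

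The cells were shallow beside the rest of their library. Ujumqin cardiomyocytes held 556 to 10734 UMIs with a median of 1760, against a median of 9687 in the other Ujumqin cells. Hulunbuir cardiomyocytes held 913 to 55813 UMIs with a median of 3423, against 11891 in the other Hulunbuir cells. Of the cardiomyocytes, 38 of 39 and 16 of 23 lay below the median of all kept cells of their library. The number of genes ran from 264 to 1596 (median 546) in Ujumqin and from 363 to 4550 (median 893) in Hulunbuir cells. The median mitochondrial share was 0.681% in Ujumqin and 0.324% in Hulunbuir cardiomyocytes, against 1.99% and 3.53% in the other cells. Of the cell barcodes, 61 occurred in both libraries, and no cardiomyocyte was among them.

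In the Hulunbuir library 7 cardiomyocytes stood apart. They held over 10000 UMIs each (12655 to 55813) and together 78.0% of all Hulunbuir cardiomyocyte UMIs, the deepest pair alone holding 40.8%. Their mitochondrial share was 3.31% to 4.30%. In the Ujumqin library 1 cell passed 10000 UMIs, with 11.1% of that library's cardiomyocyte UMIs and a mitochondrial share of 1.39%. Levels and ratios summed over Hulunbuir cells are thus mostly those of 7 cells. The comparison of the breeds and the summed levels of several lists are also given for cells of at most 10000 UMIs, a limit chosen after the data were seen, while ratios to other cells are given over all 23 Hulunbuir cells. In cells within the limit the thick filament list went from 22251 to 41373 CPM (UMIs per 1000000 UMIs) in Hulunbuir and from 34008 to 31638 in Ujumqin. The thin filament list went from 8406 to 13902 and from 12038 to 10534, and the Hulunbuir level of the Z-disc list from 1512 to 3138, of the energy list from 4320 to 6504 and of the calcium handling list from 490 to 353.

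**Figure D1:**
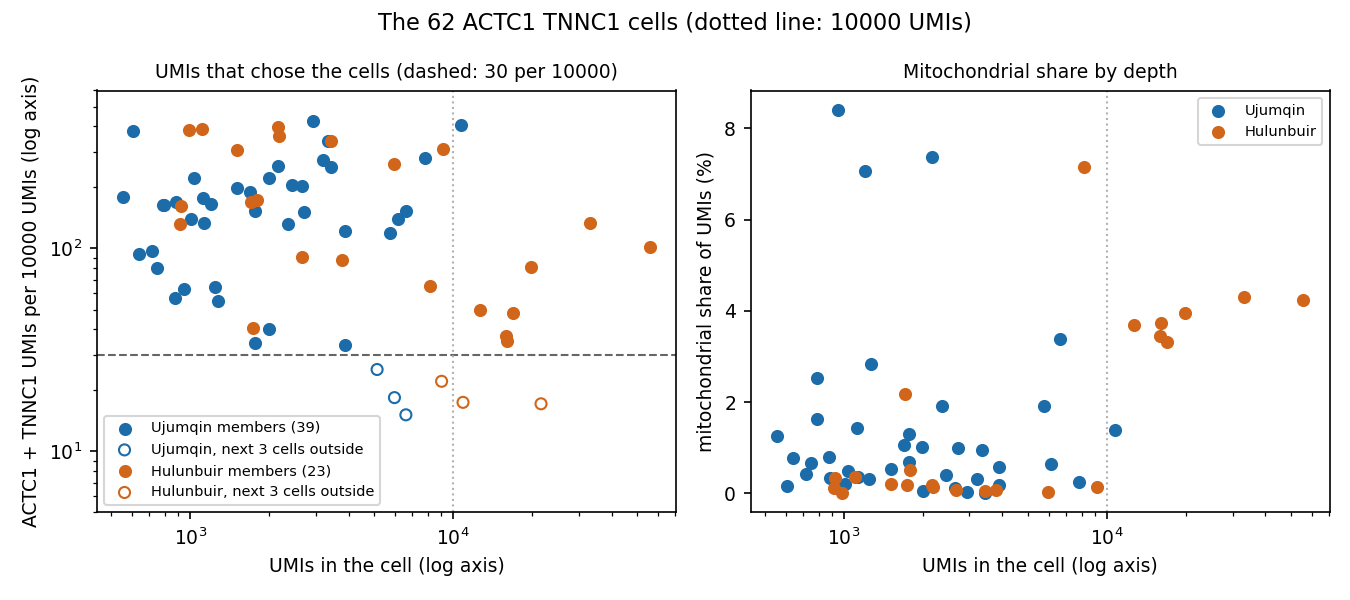
Left, ACTC1 and TNNC1 UMIs per 10000 UMIs of a cell (log axis) against the UMIs of the cell (log axis) for the 39 Ujumqin and 23 Hulunbuir cardiomyocytes (filled) and the next 3 cells of each library outside the rule (open), the dashed line being the limit of 30 per 10000. Right, the mitochondrial share in percent against the UMIs of the cell; the 7 Hulunbuir cells beyond the dotted line at 10000 UMIs lie between 3.31% and 4.30%.

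The genes that chose the cells are given as a description. ACTC1 and TNNC1 together gave 5 to 433 UMIs per Ujumqin cell (median 23) and 7 to 569 per Hulunbuir cell (median 56). Per 10000 UMIs this was 33.5 to 426 (median 164) and 34.9 to 398 (median 133). Both genes were detected in 38 of 39 and 23 of 23 cells. The cardiomyocytes held 58.9% of the ACTC1 and TNNC1 UMIs of all kept Ujumqin cells and 34.5% of those of the Hulunbuir cells, with 0.0460% and 0.170% of all UMIs. The limit fell in a sparse range of values. Just inside it lay Ujumqin cells at 33.5, 34.1 and 40.2 and Hulunbuir cells at 34.9, 37.2 and 40.5 per 10000 UMIs. Just outside lay Ujumqin cells at 25.3, 18.4 and 15.1 and Hulunbuir cells at 22.1, 17.4 and 17.2.

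The label was checked with 17 cardiac genes that the rule did not use (MYL7, MYL4, MYL3, MYL2, TNNT2, TNNI1, TNNI3, MYH6, MYH7, MYBPC3, MYOM1, ACTN2, CSRP3, NKX2-5, TBX5, GATA4 and NPPA). Ujumqin cells held UMIs of 2 to 11 of them (median 7) and Hulunbuir cells of 4 to 13 (median 8). At least 3 were detected in 38 of 39 and 23 of 23 cells, and at least 5 in 31 and 22. Each cell was then thinned at random to 1000 UMIs, which left out 10 Ujumqin and 3 Hulunbuir cells that were shallower. At this depth the mean number of markers was 5.48 (SD 1.79 over 29 cells) in Ujumqin and 5.80 (SD 2.26 over 20 cells) in Hulunbuir cardiomyocytes, and 6.56 and 8.35 before thinning. Cells outside the rule with at least 3 UMIs and at least 2 genes of ISL1, NKX2-5, TBX5, GATA4 and HAND2 are called heart-field marker cells here. They held a mean of 0.0898 markers (256 Ujumqin cells) and 0.0825 (485 Hulunbuir cells) at 1000 UMIs. At least 3 check markers were thus found in nearly all chosen cells. Single contractile markers varied, with MYL7 in 38 Ujumqin and 23 Hulunbuir cells, ACTN2 in 15 and 11 and MYL2 in 7 and 3. The transcription factor markers were at or near 0, as described further on.

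Of the sarcomere lists, the thick filament had the largest ratio to other cells, 43.2 (41.7 to 44.7) in Ujumqin and 20.7 (20.1 to 21.3) in Hulunbuir. Of its 13 genes, MYL7, MYL4, MYL3, MYH6, MYH7 and MYL2 were at least 4-fold higher in the cardiomyocytes than in the other cells of each library, 7 genes having enough UMIs for that count (at least 20 in all and 3 in each library). Over all features 3.58% met the same limit, 46 of 1286. The minimum is on cardiomyocyte UMIs, so genes that are low in these cells could not enter the count. MYL7, the atrial regulatory light chain, gave 1787 UMIs in 61 of the 62 cells, or 5679 CPM (exact Poisson interval 5419 to 5949). Ujumqin cells held 0 to 131 MYL7 UMIs (median 14) and Hulunbuir cells 1 to 154 (median 20). In CPM this was 8832 (8248 to 9445) and 4288 (4018 to 4572), against 0.621 and 0.529 in the other cells, a ratio of 14231 (11820 to 17250) in Ujumqin and 8099 (6328 to 10519) in Hulunbuir.

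MYL4, the atrial and embryonic essential light chain, was detected in all 62 cells. Ujumqin cells held 1 to 230 MYL4 UMIs (median 17) and Hulunbuir cells 5 to 473 (median 38), and the level was 14135 (13394 to 14906) and 8654 (8268 to 9053) CPM. The gene was less exclusive than MYL7, the ratio to other cells being 526 (496 to 559) and 633 (593 to 676), and 11.8% and 10.6% of the other cells held a UMI. MYL3, the ventricular and slow muscle essential light chain, had 492 UMIs in 32 Ujumqin cells and 675 in 21 Hulunbuir cells, at 5106 (4665 to 5578) and 3092 (2863 to 3335) CPM. Its ratio was 1564 (1390 to 1758) and 518 (467 to 576). MYL6, the light chain of nonmuscle and smooth muscle myosin, was present in 82.7% and 95.9% of other cells and its ratio was 6.33 and 3.68.

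The heavy chains MYH6 (alpha) and MYH7 (beta) are near-identical neighbouring genes, so reads could have been split between them or lost. MYH6 gave 0 to 7 UMIs per Ujumqin cell, 48 in all in 19 cells, and 0 to 235 per Hulunbuir cell, 468 in all in 18 cells. The level was 498 (367 to 660) CPM in Ujumqin and 2144 (1954 to 2347) in Hulunbuir, against 0.158 and 0.779 in other cells. MYH7 gave 34 UMIs in 10 Ujumqin cells and 28 in 8 Hulunbuir cells, at 353 (244 to 493) and 128 (85.2 to 185) CPM. Both heavy chains were detected together in 5 and 7 cells.

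MYL2, the ventricular regulatory light chain, was found in few cells. It was detected in 7 Ujumqin cells (27 UMIs, 1 to 9 per cell) and in 3 Hulunbuir cells (4 UMIs, 1 to 2 per cell). Only 4 UMIs lay in all other Ujumqin cells and 0 in the other Hulunbuir cells, so the ratio was 14674 (5113 to 57712) in Ujumqin and, against a floor of 3 counts over the group, at least 785-fold in Hulunbuir. Each of the 10 cells with MYL2 also held MYL7, MYL4 and MYL3. MYBPC3, which binds myosin, had 2 UMIs in 2 Hulunbuir cells, and MYH7B and MYOM2 had 0 UMIs.

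Of the thin filament, TNNT2, TNNI1, TNNI3 and TPM1 were at least 4-fold higher in each library, among 8 of 13 genes outside the rule with enough UMIs. TNNT2, cardiac troponin T, gave 0 to 50 UMIs per Ujumqin cell (median 3, 32 cells) and 2 to 100 per Hulunbuir cell (median 9, 23 cells). Its level was 2428 (2127 to 2760) and 2107 (1919 to 2309) CPM against 0.220 and 0.989 in other cells. The intervals of the breeds overlapped, which does not show equal levels. TNNI1, the slow skeletal troponin I of the fetal heart, had 181 UMIs in 32 and 258 in 20 cells, with ratios of 308 (262 to 361) and 105 (92.0 to 120). TNNI3, the cardiac troponin I, had 80 UMIs in 13 and 85 in 20 cells. Its ratio was 173 (136 to 217) in Ujumqin but 11.0 (8.77 to 13.6) in Hulunbuir, where 30.1% of the other cells held a UMI. A single Ujumqin cell held 51 of the 80 TNNI3 UMIs. TPM1, alpha tropomyosin, gave 5656 (5191 to 6151) and 2401 (2199 to 2615) CPM with ratios of 102 and 21.1. TPM2, beta tropomyosin, had ratios of only 2.78 and 4.59. ACTA1, the skeletal alpha actin, is close in sequence to ACTC1 and had 6 and 9 UMIs, in 3 and 4 cells.

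At the Z-disc, CSRP3 had the highest ratio to other cells of all symbols with enough UMIs, by the lower value of the libraries. CSRP3, the muscle LIM protein, gave 48 UMIs in 18 Ujumqin cells and 64 in 14 Hulunbuir cells, against 10 and 0 UMIs in all other cells. The ratio was 10435 (5213 to 23133) in Ujumqin and at least 12552-fold in Hulunbuir. ACTN2, sarcomeric alpha actinin, had 26 UMIs in 15 and 18 in 11 cells, with ratios of 897 (545 to 1438) and 189 (105 to 327). The other genes past 4-fold in each library were ANKRD1, a stretch-responsive nuclear cofactor (ratios 79.7 and 27.1), the small heat shock protein CRYAB (184 and 44.7) and NEXN, an actin-binding Z-disc protein (32.2 and 7.66). They were 5 of the 6 Z-disc genes with enough UMIs, of 22 with a symbol. Outside the lists, TRIM55, a sarcomere-associated ubiquitin ligase, had 9 and 17 UMIs with ratios of 6522 (1628 to 37453) and 400 (203 to 771).

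**Figure D2:**
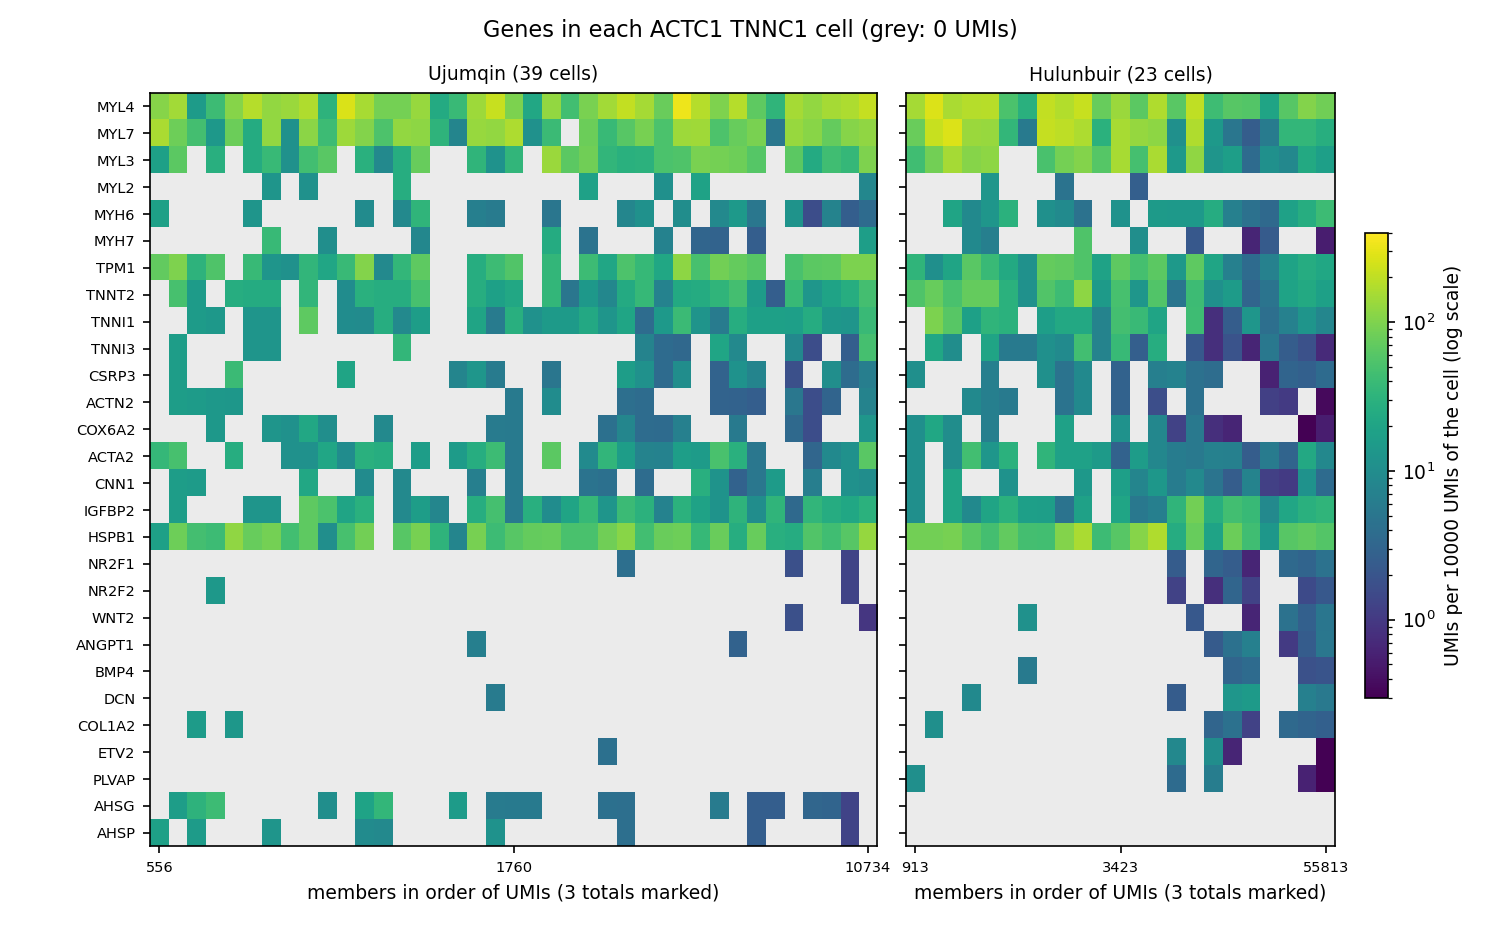
UMIs per 10000 UMIs (colour, log scale, grey for 0 UMIs) of named genes in each cardiomyocyte, with the cells of each library in order of their UMIs from left to right. MYL4 is coloured in all 62 cells and MYL7 in 61, while most UMIs of NR2F1, NR2F2, ANGPT1, BMP4 and DCN lie in the deepest Hulunbuir cells.

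Genes of calcium handling were sparse. None of the 13 genes had enough UMIs for the 4-fold count, and 5 had 0 UMIs, among them PLN (phospholamban), SLN (sarcolipin) and CASQ2. RYR2, the calcium release channel, had 0 UMIs in Ujumqin and 24 in 7 Hulunbuir cells. JPH2, which joins the release sites to the cell membrane, had 4 and 11 UMIs, with ratios of 171 (44.8 to 464) and 249 (111 to 521). TRDN, triadin, had 3 and 9 UMIs against 0 and 1 in all other cells, and CACNA1D, a calcium channel subunit, had 0 and 16. The summed ratio of the list to other cells was 1.29 (0.617 to 2.37) in Ujumqin and 3.00 (2.46 to 3.63) in Hulunbuir. Of 14 ion channel and gap junction genes, 7 had 0 UMIs and the summed ratio was 1.55 (0.320 to 4.54) and 1.39 (0.835 to 2.17). In Ujumqin cardiomyocytes 0 UMIs allowed a level of up to 38.3 CPM, the exact upper bound. RYR2 stood at 110 (70.4 to 164) CPM in Hulunbuir, where 95.8% of its UMIs lay in the cells over 10000 UMIs.

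Muscle energy genes followed the sarcomere in part. Of 12 genes with enough UMIs, 4 were at least 4-fold higher in each library. COX6A2, the heart and skeletal muscle subunit of cytochrome c oxidase, had 35 UMIs in 17 and 30 in 13 cells with ratios of 5853 (3021 to 12055) and 841 (465 to 1545). PYGM, muscle glycogen phosphorylase, had 11 and 14 UMIs (ratios 171 and 40.2). ENO3, the muscle enolase, had ratios of 14.1 and 7.17, and SLC25A4, the ADP and ATP carrier of muscle mitochondria, had 24.1 and 4.88. Their widely used counterparts were nearer to the other cells, ENO1 at 1.93 and 1.03, PKM at 2.51 and 1.02 and LDHA at 2.23 and 0.917. CKB, brain creatine kinase, had ratios of 6.33 and 2.20, while CKM, its muscle form, and MB, myoglobin, had 0 UMIs.

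Smooth muscle genes were also higher in these cells. ACTA2, smooth muscle alpha actin, which the early heart is known to express and which is close in sequence to ACTC1, had 190 UMIs in 29 Ujumqin and 218 in 21 Hulunbuir cells. Its level was 1972 (1701 to 2273) and 999 (871 to 1140) CPM, with ratios of 28.7 (24.8 to 33.1) and 42.7 (37.0 to 49.0). CNN1, calponin, had ratios of 71.1 and 23.8, TAGLN 15.2 and 4.99 and MYL9 14.7 and 5.41. These were 4 of the 5 smooth muscle genes with enough UMIs, and CALD1, caldesmon, at 0.605 and 0.837 was the exception. MYH11, the smooth muscle myosin heavy chain, had 0 and 4 UMIs. Of the skeletal muscle list, MYOD1, MYF5, MYF6, MYOG and PAX7 had 0 UMIs, and TNNC2, fast troponin C, had 6 and 22 UMIs in 2 and 9 cells with ratios of 221 (78.0 to 510) and 124 (74.8 to 199).

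In all, 24 of the 46 features at least 4-fold higher in each library belonged to the muscle lists. The 1286 features tested, of which 3.58% passed, held few genes of these lists. They were 8 of the thin filament, 7 of the thick filament, 6 of the Z-disc, 12 of energy, 5 of smooth muscle and 1 of skeletal muscle. Of the 46, 39 had a symbol. Beyond those named above the 39 included FXYD1, a regulator of the sodium pump (ratios 20.9 and 22.1), PGM5, a protein of adherens junctions in muscle (11.2 and 36.5), FILIP1, a filamin-interacting protein (70.1 and 70.7) and NEURL2 (54.9 and 26.3). The median log2 ratio over all 1286 features was 0.38 in Ujumqin and -0.17 in Hulunbuir. In the opposite direction 11 of 1512 features were at least 4-fold lower in each library, or 0.728%. Of the 11, 7 had a symbol, among them COL1A1 and LUM of connective tissue and RBP4 of endoderm. The 4 without a symbol included features with 2518, 1635 and 604 of the 4816 Ujumqin cardiomyocyte UMIs of the 11. These features are also among the 6 without a symbol that were lower in Hulunbuir cardiomyocytes, given further on.

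**Figure D3:**
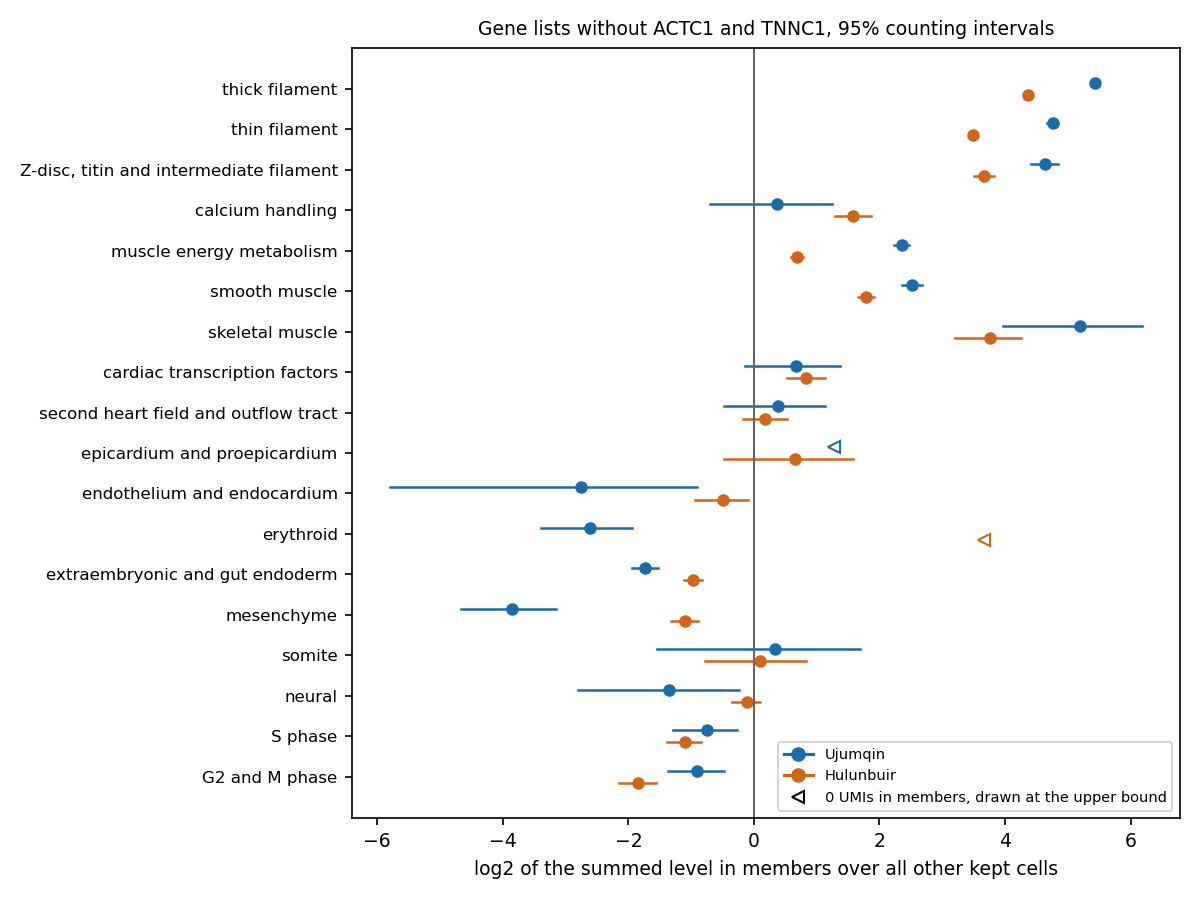
Log2 ratio of the summed level of each gene list in cardiomyocytes over all other cells of the same library, without ACTC1 and TNNC1, with 95% counting intervals, and open triangles at the upper bound where the cardiomyocytes had 0 UMIs. The thick filament list stands at 5.43 in Ujumqin and 4.37 in Hulunbuir, and the mesenchyme list at -3.85 and -1.10.

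The cardiac transcription factors did not share this pattern. Of 27 with a symbol, 11 had 0 UMIs in all 62 cells and none had enough UMIs for the 4-fold count. NKX2-5, the homeobox factor of the early heart, had 0 UMIs in the cardiomyocytes and 0 and 4 in all other cells. GATA4 had 0 and 2 UMIs, TBX5 1 and 4, TBX20 1 and 6, GATA6 1 and 6, HAND2 2 and 4 and ISL1 0 and 1. The 256 and 485 heart-field marker cells, which GATA4, TBX5 and HAND2 helped to choose, held 220 and 296 GATA4 UMIs at 15.4 and 24.2 CPM. The cardiomyocytes' 0 and 2 GATA4 UMIs allowed up to 38.3 CPM in Ujumqin and gave 9.16 (1.11 to 33.1) CPM in Hulunbuir, so a lower level was not detectable at this depth. Their TBX20, not used in that choice, was at 9.60 and 20.3 CPM, against 10.4 (0.263 to 57.8) and 27.5 (10.1 to 59.8) in the cardiomyocytes. These intervals include the level of the heart-field marker cells. The natriuretic peptide gene NPPA had 0 UMIs in either library, inside and outside the cardiomyocytes, as had PLN and SLN.

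The heart-field marker cells held few contractile transcripts. They were taken from cells outside the ACTC1 and TNNC1 rule, so cells high in these 2 contractile genes could not enter them. Their choice also needed at least 3 UMIs whatever the depth, which deep cells meet more easily. Their medians were 43280 and 22743 UMIs. MYL7 was at 0.351 and 0.736 CPM in them and was found in 5 of 256 and 9 of 485 cells. TNNT2 had 0 and 4 UMIs there. After thinning to 1000 UMIs, MYL7 was found in 93.1% (77.2% to 99.2%) of 29 Ujumqin and 80.0% (56.3% to 94.3%) of 20 Hulunbuir cardiomyocytes, and in 0 of the 256 and 0 of the 485 heart-field marker cells. The exact upper bounds of these zero shares are 1.43% and 0.758%. MYL4 was found in 100% of cardiomyocytes at this depth and in 5.08% and 1.44% of the heart-field marker cells. Unthinned, MYL4 was found in 60.2% and 20.8% of them. Unlike these, HSPB1, a small heat shock protein, was common in both, in 96.6% of Ujumqin cardiomyocytes and 79.3% of the heart-field marker cells of that library. Endothelial marker cells, with medians of 27210 and 18173 UMIs, held 1 and 0 MYL7 UMIs in 134 and 245 cells.

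**Figure D4:**
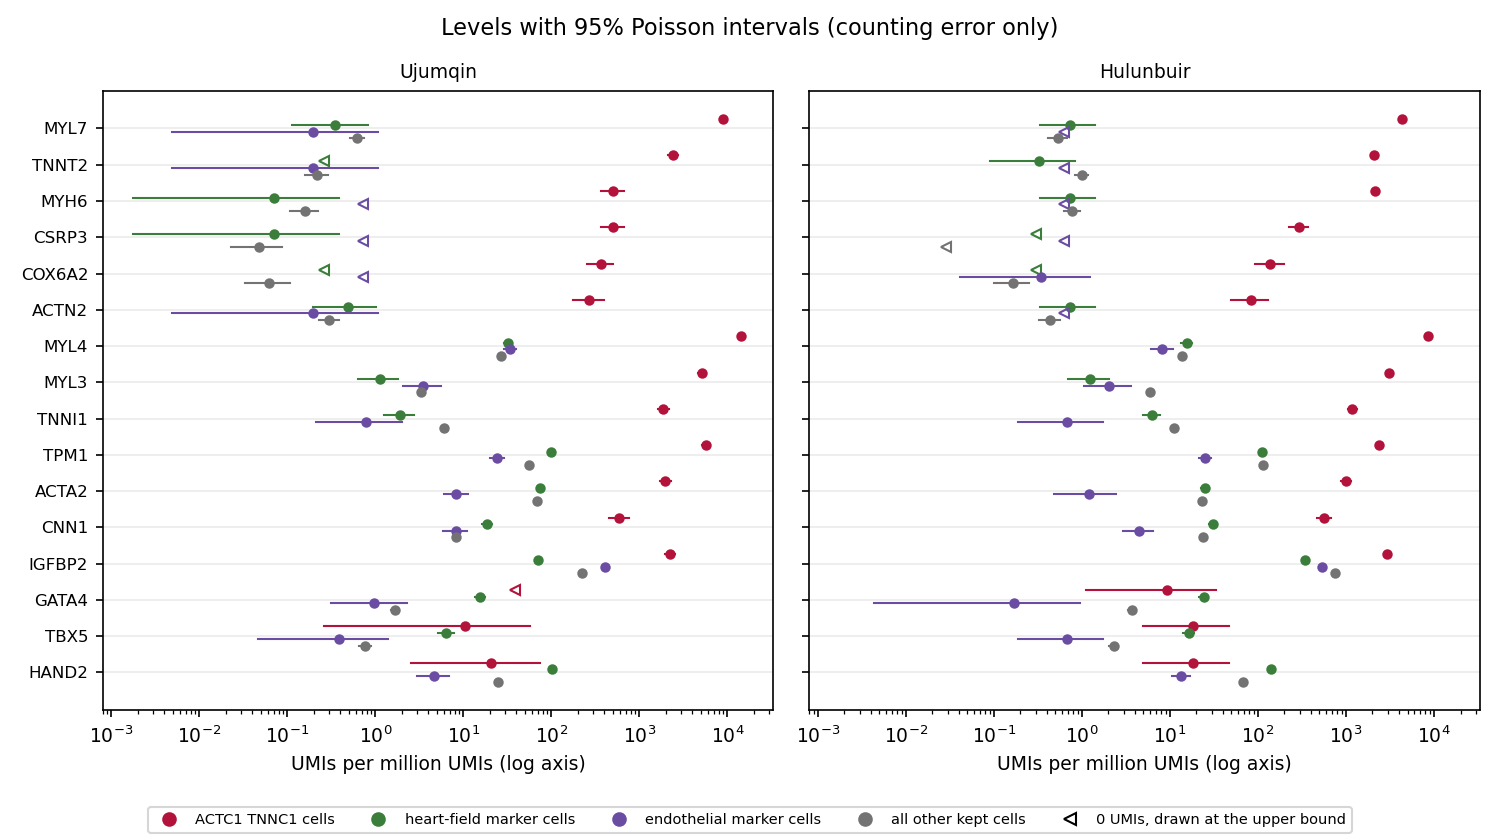
Levels in CPM (log axis) with 95% Poisson intervals in cardiomyocytes, heart-field marker cells, endothelial marker cells and all other cells, for Ujumqin (left) and Hulunbuir (right), with open triangles at the upper bound for 0 UMIs. The contractile genes lie to the right in the cardiomyocytes alone, while GATA4, TBX5 and HAND2 overlap with or lie below the heart-field marker cells that they helped to choose.

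UMIs of both chamber lists lay in the same cells, those of the ventricular list being mostly of MYL3. The atrial list, led by MYL7, MYL4 and MYH6, had a summed level of 23547 CPM in Ujumqin and 15484 in Hulunbuir, and the ventricular list, led by MYL3, MYH7 and MYL2, had 5770 and 3243. In cells of at most 10000 UMIs the order of the breeds turned, the atrial list being at 22236 CPM in Ujumqin and 26598 in Hulunbuir and the ventricular list at 4917 and 9122. All 62 cells held atrial list UMIs, and 32 of 39 and 21 of 23 held ventricular list UMIs. Of the ventricular list UMIs, 492 of 556 in Ujumqin and 675 of 708 in Hulunbuir were of MYL3, which is also a slow muscle chain. MYH7 was found in 10 and 8 cells and MYL2 in 7 and 3. Of the ventricular factors, IRX4 and HEY2 had 0 UMIs. NR2F1 and NR2F2, nuclear receptors of the atrial program, had 3 and 2 UMIs in Ujumqin and 53 and 26 in Hulunbuir. The sinus venosus list had 1 UMI in Ujumqin, 1.12 times (0.0282 to 6.23) the level of other cells, and 36 in Hulunbuir, 3.2 times (2.24 to 4.44) that level. Of the Hulunbuir UMIs 29 were of BMP4, a signalling ligand with 0 UMIs in Ujumqin, and 28 of these lay in the cells over 10000 UMIs. The list was at 165 CPM in Hulunbuir and at 62.3 CPM in the cells of at most 10000 UMIs. HCN4, SHOX2 and TBX3 had 0 UMIs in Ujumqin and 2, 1 and 2 in Hulunbuir.

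Among secreted factors, IGFBP2, which binds insulin-like growth factors, had the most UMIs. It had 214 UMIs in 32 Ujumqin cells and 646 in 21 Hulunbuir cells, at 2221 (1933 to 2539) and 2959 (2736 to 3197) CPM, with ratios of 9.85 (8.57 to 11.3) and 3.92 (3.62 to 4.24). IGF2, the growth factor itself, was at the level of other cells, with ratios of 0.804 (0.572 to 1.10) and 1.05 (0.91 to 1.2). Of the 3 genes of this list with enough UMIs none passed 4-fold in each library. ANGPT1, which had too few with 2 in Ujumqin and 60 in Hulunbuir, had ratios of 18.0 (2.17 to 65.9) and 64.3 (48.4 to 84.1), and all 60 lay in the Hulunbuir cells over 10000 UMIs. NPPA, BMP10, NRG1 and the receptors ERBB2, ERBB3 and ERBB4 had 0 UMIs.

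Summed levels of the endoderm, endothelial and mesenchyme lists were below those of other cells. The endoderm list was at 0.301 (0.261 to 0.347) of the level of other cells in Ujumqin and 0.509 (0.460 to 0.562) in Hulunbuir. KRT18, an epithelial keratin, gave 104 of its 194 Ujumqin UMIs, in 26 cells at 1.68 times (1.37 to 2.03) the level of other cells, and 332 of its 395 Hulunbuir UMIs, at 0.516 (0.462 to 0.574) of that level. In Ujumqin cardiomyocytes AHSG, a plasma protein gene of endoderm, was found in 18 of 39 cells at 301 (202 to 432) CPM, against 2527 CPM in other cells. After thinning it was found in 17.2% (5.85% to 35.8%) of them and in 5.47% (3.02% to 9.01%) of the heart-field marker cells of that library. These intervals overlapped, which does not show equal shares. In Hulunbuir cardiomyocytes AHSG had 0 UMIs, and other cells were at 34.7 CPM. The erythroid list of 9 genes had 17 UMIs in 14 Ujumqin cells (176 CPM, other cells 1080) and 0 in Hulunbuir cells, where other cells were at 1.35 CPM and a difference was not detectable. Of 13 endothelial and endocardial genes 9 had 0 UMIs, CDH5, PECAM1, EGFL7, TIE1 and CLDN5 included, and the summed level was 20.8 CPM in Ujumqin and 220 in Hulunbuir, the latter 291 in cells of at most 10000 UMIs beside 311 in other Hulunbuir cells. KDR had 0 and 11 UMIs and ETV2, the factor that starts the endothelial line, had 1 and 22, of which 7 and 13 lay in the same Hulunbuir cell of 12655 UMIs. The 291 CPM in Hulunbuir cells of at most 10000 UMIs came mostly from 1 cell of 8146 UMIs. It held all 7 ETV2 UMIs, all 3 KDR UMIs and 3 of the 4 UMIs of PLVAP, another gene of this list. The epicardial markers WT1, TBX18, UPK3B, UPK1B, BNC1 and LRRN4 had 0 UMIs. Mesenchyme genes were at 166 CPM in Ujumqin and 802 in Hulunbuir, against 2400 and 1721 in other cells. In cells of at most 10000 UMIs they were at 187 and 229 CPM, and 97.1% of the Hulunbuir DCN UMIs lay in the deeper cells. The part of free RNA or mixed droplets in these values was not tested.

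Genes of cell division were below the level of other cells. The summed level of the S phase list was 0.594 (0.411 to 0.830) of that in other Ujumqin cells and 0.466 (0.383 to 0.560) in Hulunbuir. For the G2 and M phase list it was 0.535 (0.389 to 0.718) and 0.279 (0.227 to 0.340). TOP2A, a topoisomerase of dividing cells, had 8 UMIs in 6 Ujumqin and 32 in 8 Hulunbuir cells, of which 12 lay in 1 cell. Somite genes were at 1.26 (0.344 to 3.23) and 1.06 (0.581 to 1.79) and neural genes at 0.391 (0.144 to 0.852) and 0.923 (0.788 to 1.07) of the level in other cells. The Hulunbuir level of the neural list went from 760 to 332 CPM in cells of at most 10000 UMIs, beside 824 in other cells, 96.3% of the NES UMIs lying in the deeper cells. Of the stress genes, HSPB1 was at 5.78 (5.33 to 6.26) and 2.95 (2.80 to 3.12) times that level and FOS, an immediate early gene, at 0.559 (0.268 to 1.03) and 1.22 (0.699 to 1.99).

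Hulunbuir cardiomyocytes were next compared with Ujumqin cardiomyocytes. Of 1023 features with at least 30 UMIs, 60 were at least 4-fold higher in Hulunbuir, or 5.87%, and 8 were at least 4-fold lower, or 0.782%. Of 48 contractile genes with a symbol, 20 had enough UMIs, 1 of which (MYH6) was past 4-fold higher and 1 (MYL2) past 4-fold lower. Their median log2 ratio of Hulunbuir over Ujumqin was -0.69, with 15 genes below 0, beside -0.08 over all features. The same ratio in cells of at most 10000 UMIs was 0.56 over 16 genes, 12 of them above 0, beside -0.04 over all 515 features tested there. The direction of the contractile genes between the breeds thus turned with the deep cells.

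MYL7 showed this turn, with a log2 ratio of -1.04 (-1.18 to -0.91) over all cells and 0.46 over cells of at most 10000 UMIs. MYL3 went from -0.72 to 0.94, TNNT2 from -0.20 to 0.88, TNNI3 from -1.09 to 1.78, MYH7 from -1.46 to 1.15 and COX6A2 from -1.40 to 1.02. MYH6 kept its sign, at 2.11 (1.68 to 2.57) and 1.10, as did ANKRD1 at 1.68 (0.77 to 2.74) and 2.90. At 1000 UMIs per cell MYH6 was found in 24.1% (10.3% to 43.5%) of the Ujumqin and 60.0% (36.1% to 80.9%) of the Hulunbuir cells. These intervals overlapped, which does not show equal shares, and cells of 1 library are not replicates of a breed. In all other cells of the libraries MYH6 was at 0.158 CPM in Ujumqin and 0.779 in Hulunbuir, also higher in Hulunbuir. MYL2 was lower in both settings, at -3.93 (-5.91 to -2.41) and -1.34. Both values rest on 4 Hulunbuir UMIs in 3 cells, and 9 of the 27 Ujumqin UMIs lay in the 1 cell over 10000 UMIs. So few UMIs leave the second value uncertain, and it does not establish a difference.

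**Figure D5:**
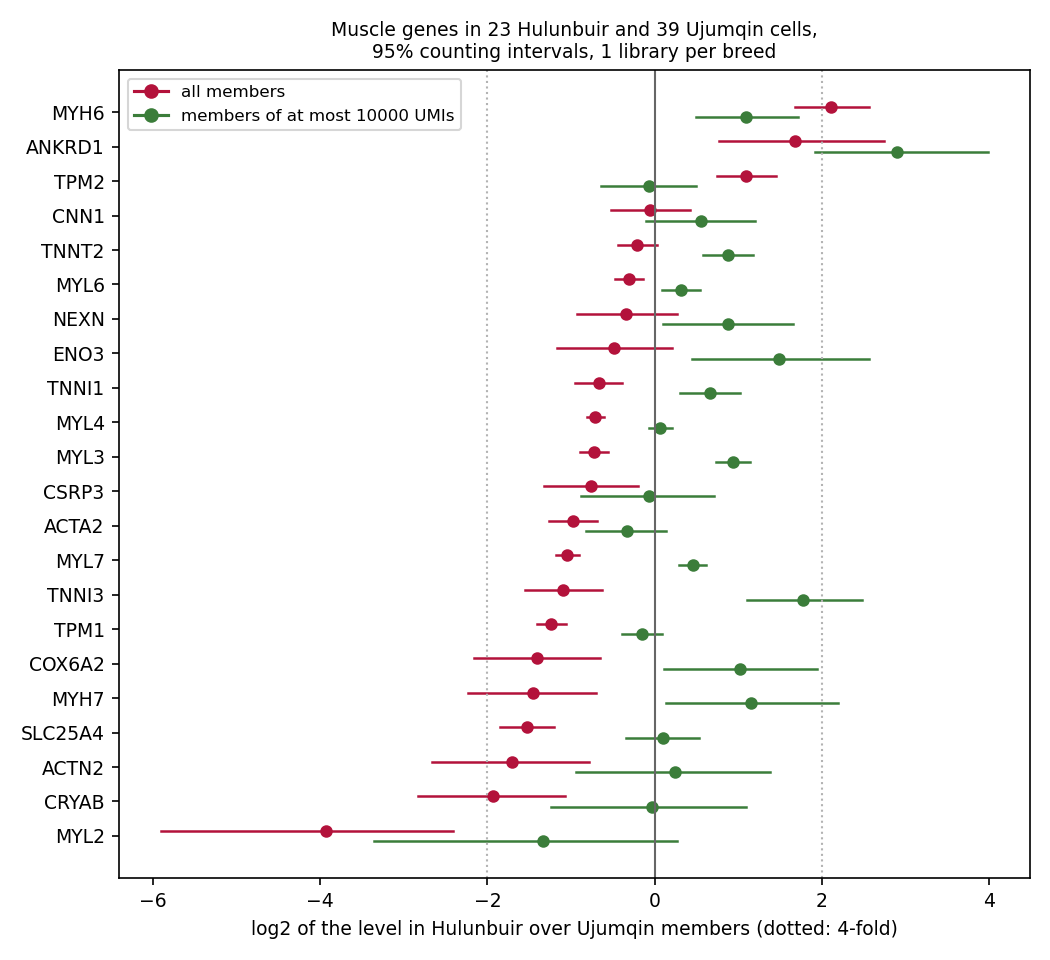
Log2 ratio of the level in Hulunbuir over Ujumqin cardiomyocytes for muscle genes, over all 62 cells (red) and over the cells of at most 10000 UMIs (green), with 95% counting intervals and dotted lines at 4-fold. MYL7 moves from -1.04 to 0.46 and TNNI3 from -1.09 to 1.78, while MYH6 lies right of 0 in both.

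The 60 features higher in Hulunbuir were, with the exception of MYH6, not those of the muscle lists. DCN, decorin, a proteoglycan of connective tissue, had 1 UMI in Ujumqin and 102 in Hulunbuir, a log2 ratio of 5.49 (2.98 to 10.81). COL4A1, a basement membrane collagen, had 1 and 79 UMIs, ANGPT1, a ligand of the endothelial TIE2 receptor, 2 and 60, WNT2, a signalling ligand, 2 and 51, and TGFB2, a growth factor of the heart cushions, 4 and 93. NES, an intermediate filament protein, had 5 and 134, and NR2F1 3 and 53. Between the other cells of the libraries, 6 of the 60 were past 4-fold higher in Hulunbuir too. The log2 ratio of NES in these other cells was 2.06, that of TGFB2 1.93 and that of ANGPT1 1.89, beside a median of 0.56 over all 1023 features. Only 2 of the 60 had the opposite sign there, DCN at -0.34 and COL1A2 at -0.46. For most of the 60 the direction was thus shared with the other cells. A positive ratio was usual there, as the median of 0.56 over all features shows. The shared sign therefore does not tell whether a difference was particular to cardiomyocytes. Of the 60, 20 were also past 4-fold in cells of at most 10000 UMIs when no minimum of UMIs was set there. For TGFB2 and COL1A2 the log2 ratio there was -1.17 and -0.17, from 1 Hulunbuir UMI each. Of the 8 lower features, 6 had no symbol. These 6 took 5.74% of the Ujumqin cardiomyocyte UMIs, 25.8% of those of other Ujumqin cells, 46.6% of those of Ujumqin erythroid marker cells, 0.00229% of those of Hulunbuir cardiomyocytes and 0.0144% of those of other Hulunbuir cells. Of the 8 lower features, 7 were past 4-fold lower between the other cells of the libraries too.

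Within the Hulunbuir library the 7 deep cells differed from the other 16. MYL7 was at 2233 CPM in the deep cells and 11554 in the others, the level of the others being 5.17 times as high (4.53 to 5.91). MYL3 was 5.64 times (4.82 to 6.62), TNNI3 6.83 times (4.29 to 11.1) and COX6A2 14.1 times (5.63 to 42.3) as high in the others. MYL4 differed less than these, at 1.93 times (1.75 to 2.12), as did MYL6 at 1.70 times (1.47 to 1.97), and ACTA2 (1.16, 0.840 to 1.59) and IGFBP2 (0.996, 0.821 to 1.2) had intervals that included equal levels. MYH6 went the opposite way and was 2.21 times (1.66 to 3.01) as high in the deep cells, as was TPM2 at 2.38 times (1.73 to 3.37). The depth limit did not part the cells cleanly. Among the other 16, the cell of 8146 UMIs had a mitochondrial share of 7.16% and 118 check marker UMIs per 10000. The cell of 9135 UMIs had 0.131% and 602.

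The deep cells held nearly all UMIs of several regulators and matrix genes. NR2F1 had 4, 4, 1, 0, 7, 10 and 25 UMIs in the deep cells in order of their depth and 2 UMIs in the others, both in the cell of 8146 UMIs. ANGPT1 had 3, 7, 11, 0, 2, 8 and 29 UMIs and 0 in the others. DCN had 0, 21, 24, 0, 0, 23 and 31, so that 3 of the deep cells held none. NR2F1 was 7.21 times (1.90 to 61.2) and DCN 9.33 times (3.1 to 46.0) as high per UMI in the deep cells as in the others. The 5 TBX5 UMIs lay 3 in 1 deep Hulunbuir cell and the rest in other cells. MYL2 had 0 UMIs in all 7 deep cells. No deep cell lacked MYL7, which had 18, 8, 4, 10, 70, 118 and 152 UMIs, nor TNNT2, which had 14, 25, 5, 8, 39, 79 and 100. The single Ujumqin cell over 10000 UMIs had none of NR2F1, ANGPT1 and DCN, held 9 MYL2 and 18 MYH7 UMIs, and 613 UMIs of the check markers per 10000, where the deep Hulunbuir cells held 59.3 to 232. The part of mixed droplets in the deep cells was not tested.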

How the data were processed

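Single cells of pooled E16 embryos were profiled by 10x Genomics 3' sequencing, 1 library per breed. The deposited UMI counts per gene and barcode were made by the authors with Cell Ranger (3.1.0 in the submitters' processing notes, 5.0.0 in the file header), and the submitters also name R 3.6.1 and Seurat 3.2.0. The annotation release was not used here. Both matrices hold 26478 features, of which 9808 have no symbol and cannot be named. A symbol that occurs more than once (83 symbols) was read at its first feature.

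From these counts, levels were computed as UMIs per 1000000 UMIs (CPM) with exact Poisson intervals, shares with Clopper-Pearson intervals and ratios with exact conditional binomial intervals, all at 95%, in Python 3.11.15 with numpy 2.4.6, scipy 1.17.1, pandas 2.3.3 and matplotlib 3.10.9. A level of 0 was replaced by 3 counts where a bound is given. With 1 library per breed no test was run, and features were counted past 4-fold. Doublets were kept and no caller was run. As an alternative, cardiomyocytes among the top 5% of UMIs of their library were left out. The cell rule, the gene lists and the limits were chosen with earlier results of these data known. Genes were named as the 6 most abundant of each list and those at 0, the 25 with the highest ratio to other cells, and the 10 highest and 10 lowest between breeds. Genes given by single-cell values were chosen after their values were seen. The scripts were tested on simulated data. Alternatives were other limits on genes, mitochondrial share, rule UMIs and fold, other totals, and leaving out deep cells. A gene of the transcription factor list is not reported here by name.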

Additional observations from a re-analysis of the deposited data

How the results depend on the processing

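No paired analysis was possible because each breed is 1 library. With 62 cells and a median of 2072 UMIs per cell, depth limits what rare genes can show, and the cells of most UMIs weigh most in every summed level. The Ujumqin count of 39 cells became 23 with at least 500 genes per cell and stayed at 30 to 41 otherwise, and the Hulunbuir count of 23 stayed at 18 to 24. The summed level of the check markers over both libraries, 26322 CPM, was 31395 at 50 rule UMIs per 10000. It was 32905 as the mean of the cells' levels. With a total free of mitochondrial, ribosomal protein and named erythroid genes it was 37685, features without a symbol being kept in that total. The level was 28251 without cells in the top 5% of UMIs. In cells of at most 10000 UMIs, a setting chosen after seeing the data, it was 36240. The 46 features higher in the cardiomyocytes became 84 at 2-fold and 31 to 64 elsewhere. The 60 features higher in Hulunbuir became 21 without cells in the top 5% of UMIs, 31 without the deepest cell of each library, 2 in cells of at most 10000 UMIs, 155 at 2-fold and 222 at a minimum of 10 UMIs. The 8 lower ones became 73 at 2-fold and 32 at a minimum of 10 UMIs. The mean number of check markers in thinned Ujumqin cells went from 5.48 to 7.63 at 2000 UMIs. In cells of at most 10000 UMIs the log2 ratio of Hulunbuir over Ujumqin turned to -1.17 for TGFB2 and -0.17 for COL1A2. Over 30 genes and 8 settings, 467 of 480 ratios to other cells and 208 of 240 ratios between breeds kept their sign. The 32 that changed fell in 15 of the 30 genes, among them MYL7, MYL4, MYL3, TNNT2, TNNI3 and HSPB1.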
